A study of Mus musculus with 12 samples.

Results

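Mmp3, Serpina3f, Stfa3, Serpinb10 and Capn9 are 5 genes of proteases and protease inhibitors that entered or left the transcript catalogues of BV-2 cells with treatment. They make up 5 of the 14275 genes named in any catalogue. They were chosen by name from these same comparisons, in which each was listed in every library of at least one group and in no library of another, so their listing is a description, and no test of it on these libraries can support the choice. RNA had been sequenced from BV-2 cells, which are mouse microglia transformed with an oncogene so that they grow without limit, and the 12 libraries form 4 groups of 3. Control cells had no treatment named beyond that word, LPS cells received lipopolysaccharide, which comes from the outer membrane of bacteria and sets off inflammatory signalling, NMN cells received nicotinamide mononucleotide, a precursor of NAD, and LPS+NMN cells received both. BV-2 is a single transformed line, the labels give no dose or time, and they do not say whether the 3 libraries of each group are separate cultures. All p-values therefore rest on the spread between libraries, which may be technical. In limma the spread of each gene is in part taken over from the other genes.

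Each catalogue lists, per gene, the events of its assembled transcripts: first and last exons, exons that are skipped, introns that are retained, and exons with an alternative end. It holds no read count, expression level or depth, and the values below are numbers of distinct listed events. A gene that is absent from a catalogue has 0 events there, and fewer expressing cells, less RNA per cell and too few reads to join the exons cannot be told apart. A library listed between 11911 and 12246 genes and between 50784 and 55787 events. The labels give the cell type as macroglia. Of 20 microglia markers, 15 were listed in all 12 libraries and none was missing throughout. The list had 63 to 73 events in the control libraries, 57 to 62 in LPS, 55 to 60 in NMN and 57 to 62 in LPS+NMN, so control lay above the treated groups. The complement genes C1qa and C1qc were listed in 3 and 3 control, 0 and 1 LPS, 1 and 2 NMN, and 0 and 1 LPS+NMN libraries. P2ry12, a receptor of resting microglia, was listed in 2 control libraries and in no treated one. Cx3cr1 of the same list went the other way, with 0 control, 2 LPS, 1 NMN and 1 LPS+NMN libraries. The third complement gene, C1qb, was listed in 3 control, 2 LPS, 2 NMN and 3 LPS+NMN libraries. Of 7 astrocyte markers only Slc1a2 was listed in all 12, and Aqp4, Aldh1l1, Gja1, Sox9 and Slc1a3 were in none. Of 10 neutrophil and mast cell markers, S100a8 was in all 12 libraries, and Ly6g, Ltf, Ngp, Mcpt4 and Cma1 were in none. This list had 8 to 11 events in control, 6 to 8 in LPS, 5 to 6 in NMN and 4 to 8 in LPS+NMN. Camp, a granule peptide of neutrophils, was listed in 0 control, 3 LPS, 2 NMN and 3 LPS+NMN libraries, close to the pattern of Mmp3 and Stfa3, and Retnlg in 3, 1, 0 and 0. The part of these markers in the results was not tested.

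Proteases are made as enzymes that cut other proteins, and cells hold them in check with inhibitors that bind the active site. Matrix metalloproteases are secreted or membrane-bound enzymes that use zinc to cut extracellular matrix, cytokines and other proteases. Serpins are suicide inhibitors: a target protease cuts the reactive loop of the serpin and is trapped in the act. Stefins are small inhibitors of lysosomal cysteine proteases such as cathepsins, and calpains are cysteine proteases of the cytosol that are switched on by calcium. Activated microglia are known to release metalloproteases and to change their cathepsin and serpin genes. Mmp3 encodes stromelysin 1, which cuts matrix proteins and activates other metalloproteases. Serpina3f belongs to a mouse cluster of genes related to human antichymotrypsin. Stfa3 encodes a stefin A, Serpinb10 a clade B serpin known as bomapin from bone marrow, and Capn9 a calpain best known from the digestive tract.

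The sequence just before the start site is shown for the 4 genes whose annotated first exon was listed in at least one library, because their listing moved with treatment; for Capn9 no library listed the annotated start. Each line holds the 250 bases that precede the start site, read 5′ to 3′ on the strand of the gene from RefSeq on GRCm38.p6. Capitals mark matches to the motifs searched on both strands: TGANTCA for AP-1, GAAANNGAA for the core of interferon-response elements, TTCNNNGAA for STAT factors, TATAAA for the TATA box, GAGGAAGT for PU.1, and the NF-kB consensus.
Mmp3, chr9:7445572-7445821, plus strand: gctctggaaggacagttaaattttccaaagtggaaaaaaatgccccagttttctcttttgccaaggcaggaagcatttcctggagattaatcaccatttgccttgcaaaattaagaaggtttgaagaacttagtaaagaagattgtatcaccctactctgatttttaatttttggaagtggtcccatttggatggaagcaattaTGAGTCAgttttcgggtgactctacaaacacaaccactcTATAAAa
Serpina3f, chr12:104214294-104214543, plus strand: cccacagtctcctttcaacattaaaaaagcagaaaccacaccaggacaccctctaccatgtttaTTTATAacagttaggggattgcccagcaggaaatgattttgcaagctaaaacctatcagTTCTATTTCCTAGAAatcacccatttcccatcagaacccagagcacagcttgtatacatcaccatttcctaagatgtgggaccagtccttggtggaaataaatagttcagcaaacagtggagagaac
Stfa3, chr16:36455393-36455642, minus strand: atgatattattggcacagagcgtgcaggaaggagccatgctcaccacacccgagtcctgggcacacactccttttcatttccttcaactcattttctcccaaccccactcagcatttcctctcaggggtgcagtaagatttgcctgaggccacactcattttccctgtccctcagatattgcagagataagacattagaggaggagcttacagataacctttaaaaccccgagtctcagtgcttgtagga
Serpinb10, chr1:107528753-107529002, plus strand: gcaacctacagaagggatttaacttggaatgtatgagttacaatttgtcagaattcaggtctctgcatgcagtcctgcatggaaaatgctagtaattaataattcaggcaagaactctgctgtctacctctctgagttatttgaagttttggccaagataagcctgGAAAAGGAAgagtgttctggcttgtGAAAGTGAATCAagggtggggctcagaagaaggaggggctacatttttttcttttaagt

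The Mmp3 stretch held an AP-1 match from base -46 to -40, counted from the start site, and the TATA letters from -7 to -2. The Serpina3f stretch held a STAT match from -121 to -113. Its first bases are shared with an interferon-response match on the other strand, from -127 to -119. The TATA letters lay on the minus strand from -186 to -181. A second RefSeq start site of Serpina3f, not shown, had the same STAT and interferon-response matches within 250 bases before it, and no TATA letters. Serpinb10 held interferon-response matches from -84 to -76 and from -59 to -51, the second overlapping an AP-1 match from -54 to -48. The Stfa3 stretch held no match before the start site, and its AP-1 match lay at +30 to +36. Matches were also counted over the 300 bases from -250 to +50 of 32851 RefSeq promoters. Of these, 7.81% held the AP-1 letters, 8.56% the interferon-response core and 8.3% the STAT letters. The TATA letters were in 13.6%, the PU.1 letters in 3.2% and the NF-kB consensus in 4.51%. No promoter of the 5 genes held the PU.1 or NF-kB letters. A letter match is a description of the sequence and not a measured binding site.

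Mmp3, Serpina3f and Stfa3 were absent from every control catalogue and present in every catalogue of the other 3 groups. Mmp3 had 0, 0 and 0 events in the control libraries, 2, 2 and 3 in the LPS libraries, 2, 2 and 2 in the NMN libraries and 2, 2 and 2 in the LPS+NMN libraries. Serpina3f had the same 12 numbers, with its 3 events also in LPS replicate 3. Stfa3 had 0, 0 and 0 in control, 2, 3 and 2 in LPS, 3, 2 and 2 in NMN and 2, 2 and 3 in LPS+NMN. For these 3 genes control did not overlap any treated group, and the 3 treated groups overlapped one another.

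Serpinb10 and Capn9 showed the opposite direction with LPS. Serpinb10 had 2, 2 and 2 events in control, 0, 0 and 0 in LPS, 2, 2 and 2 in NMN and 0, 0 and 0 in LPS+NMN. It was thus listed in both groups without LPS and in neither group with it. Capn9 had 2, 2 and 2 events in control, 0, 0 and 0 in LPS, 2, 2 and 2 in NMN and 2, 2 and 2 in LPS+NMN. It was missing in the LPS libraries alone. Within each of the 5 genes no group had both listed and unlisted libraries.

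**Figure D1:**
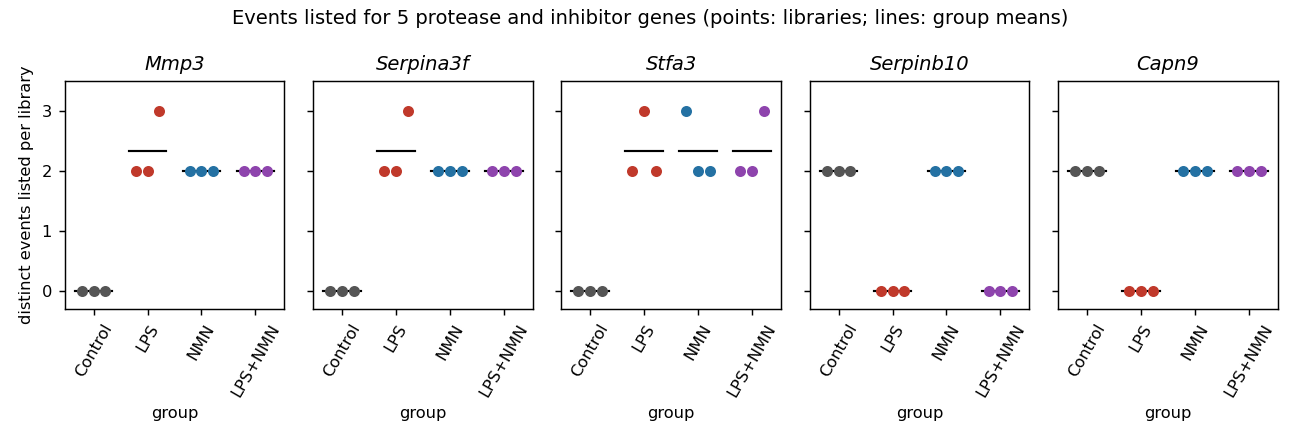
Distinct events listed per library (y axis, number of events) for the 5 genes in the 4 groups (x axis); points are libraries and lines are group means, n = 3. Mmp3, Serpina3f and Stfa3 lie at 0 in the 3 control libraries and at 2 or 3 elsewhere, Serpinb10 lies at 0 in LPS and LPS+NMN, and Capn9 at 0 in LPS.

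The size of these steps on the scale of log2(events + 1) follows from the numbers themselves, since a gene enters a catalogue with at least a first and a last exon. For LPS against control the difference was 1.72 for Mmp3, Serpina3f and Stfa3 and -1.58 for Serpinb10 and Capn9. All 5 were called by limma with Benjamini-Hochberg adjustment at 0.05, where 0.3% of the 11671 genes tested were called. For NMN against control 3 of the 5 were called, against 0.231% of all genes, and for LPS+NMN against control 4 of the 5, against 0.334%. Because the choice of the genes used these contrasts, nothing is read from those counts. None of the 5 was called when only the 2 groups compared were fitted, or when listed or not listed replaced the number of events. Serpinb10 was also lost with the replicate number as a block, with first and last exons only, and in every fit that left out 1 library. The events of Serpinb10 and Capn9 did not vary within any group, and all were first or last exons. Their calls and losses therefore rest on the spread that limma takes over from other genes and on the adjustment. Nothing is read from these losses either. In LPS+NMN against LPS and against NMN no member and no other gene was called (0% of genes each), while 521 and 531 of the 11671 genes had an unadjusted p under 0.05. The treated groups share the control libraries, so the 3 comparisons with control are not independent of one another.

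Listing in every library of one group and none of another was counted over all 14275 genes in the same way. This held for 0.455% of genes listed with LPS and not in control, 0.343% with NMN and not in control, and 0.504% with LPS+NMN and not in control, the classes of Mmp3, Serpina3f and Stfa3. It held for 0.266% of genes listed in control and not with LPS, the class of Serpinb10 and Capn9, and for 0.21% listed in control and not with LPS+NMN, that of Serpinb10. Listing with LPS+NMN and not with LPS, as for Capn9, held for 0.105%, and listing with NMN and not with LPS+NMN, as for Serpinb10, for 0.133%.

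The catalogues also give which exons each listed transcript began and ended with, which the choice of the genes did not use directly. The submitters' notes name GRCm38, but the positions in the files belong to another, unnamed mouse assembly. Each gene was therefore matched to the exons of its GENCODE M21 reference transcript by a single shift of all its positions. This shift was 0 for 244 of 12764 genes, among them Mmp3. It was the one that put most listed inner ends of the gene on annotated exon ends. The matches below are in part set by that choice, for all genes alike, and for Stfa3 it rested on 2 exon ends. Over the 12 libraries the 5 genes had 42 listings and 89 events, of which 88 were first or last exons and 78 of those 88 met an annotated exon at its inner end. The first annotated exon was present in 29 of the 42 listings (69.0%), the last in 32 (76.2%) and both in 23 (54.8%). Over 135619 listings of the 12764 genes that could be matched, 76.9% had the first exon, 79.3% the last and 65.8% both. Among the 69697 listings with at most 3 events, as the 5 genes have, 60.3% had both. The 5 genes differed widely around these values, from 9 of 9 listings with both end exons for Stfa3 to 0 of 9 for Capn9.

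**Figure D2:**
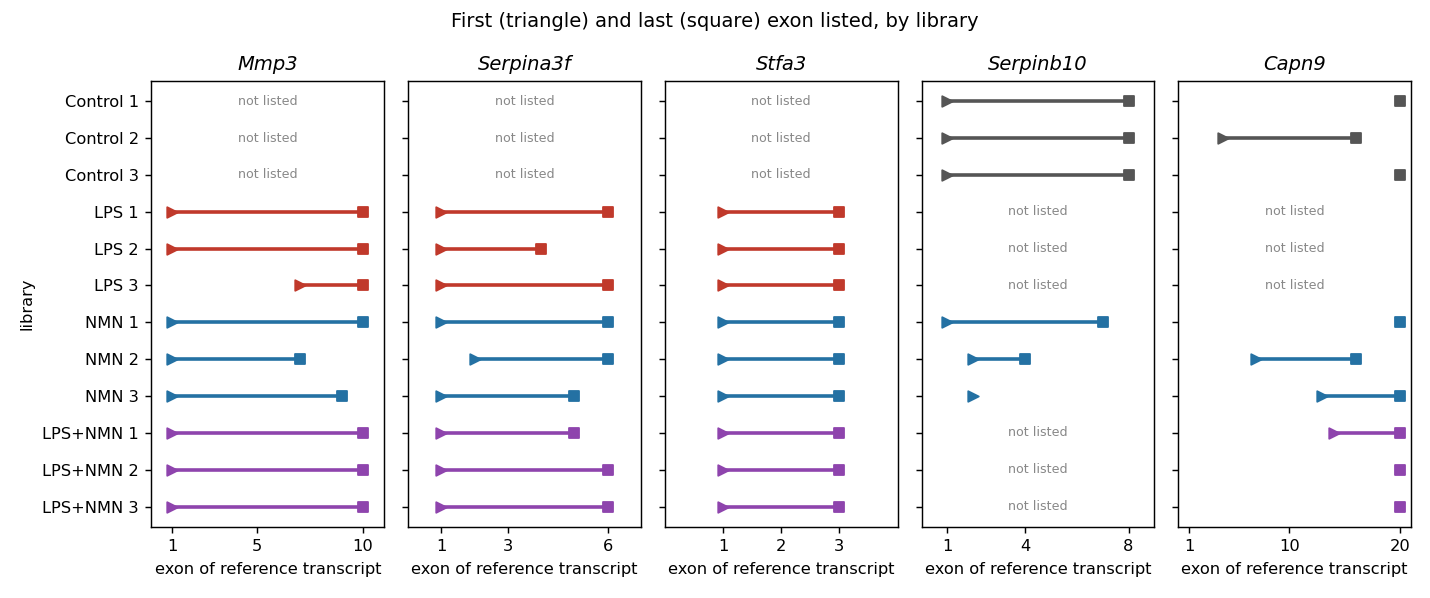
First exon (triangle) and last exon (square) listed in each library (y axis), by exon number of the reference transcript (x axis); a line joins them, and listed exons that match no annotated exon are left out. Stfa3 spans exons 1 to 3 in all 9 libraries that list it, Serpinb10 spans exons 1 to 8 in the 3 control libraries and less in the 3 NMN libraries, and Capn9 never begins at exon 1.

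Mmp3 lies on chromosome 9 at 7445822-7455975 of GRCm38, plus strand, and its transcript Mmp3-201 has 10 exons. LPS replicates 1 and 2 and LPS+NMN replicates 1 and 3 listed the first exon of 187 bases and the last exon of 386 bases exactly as annotated. LPS+NMN replicate 2 and NMN replicate 1 also ran from exon 1 to exon 10, with shorter outer ends of 147 and 170 bases in exon 1. NMN replicate 2 ended in exon 7 and NMN replicate 3 in exon 9. LPS replicate 3 began in exon 7, with a further first exon of 78 bases that is not in the annotation. Both end exons were thus listed in 2 of 3 LPS, 1 of 3 NMN and 3 of 3 LPS+NMN libraries.

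Serpina3f lies on chromosome 12 at 104214544-104221129, plus strand, and Serpina3f-202 has 6 exons. Exons 1 and 6 were listed exactly as annotated, with 77 and 915 bases, in LPS replicates 1 and 3 and in LPS+NMN replicate 3. NMN replicate 1 and LPS+NMN replicate 2 also spanned exons 1 to 6. LPS replicate 2 ended in exon 4, NMN replicate 3 and LPS+NMN replicate 1 ended in exon 5, and NMN replicate 2 began in exon 2. The full span was therefore listed in 2 LPS, 1 NMN and 2 LPS+NMN libraries. The single splicing event of the 5 genes was here: LPS replicate 3 listed exon 2, of 212 bases, as skipped in a part of the transcripts. That exon precedes the annotated coding sequence, which begins in exon 3.

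Stfa3 lies on chromosome 16 at 36450537-36455392, minus strand, and has 3 exons. Its span from exon 1 to exon 3 was listed in all 9 libraries of the treated groups. The first exon of 112 bases was identical in 7 of these libraries and the last exon of 198 bases in all 9. LPS replicate 2, NMN replicate 1 and LPS+NMN replicate 3 listed a further last exon that begins 4 bases further in, and these are the libraries with 3 events. The junction is shown because those 4 bases set the 3-event libraries apart: the last 15 bases of exon 2 stand before the capitals, which mark the 4 skipped bases at the start of exon 3 (chr16:36450731-36450734, GRCm38, minus strand, from the GENCODE M21 transcript).
Stfa3-201, exon 2 to exon 3: aatttgttcattaagATAGatgtagggaat
The skipped bases end in AG, the letters that end most introns, and their number is not a multiple of 3. The second form occurred in 1 library of each treated group, so its presence did not set the groups apart.

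Serpinb10 lies on chromosome 1 at 107529003-107549271, plus strand. GENCODE M21 labels the gene a polymorphic pseudogene, a class for genes that are intact in some strains and broken in the reference strain. The annotated coding start of transcript Serpinb10-203 is shown because it holds the stop: reading from its start codon, the first stop in frame is codon 21, in capitals (chr1:107532371-107532433, GRCm38, plus strand).
Serpinb10-203, start codon to first stop: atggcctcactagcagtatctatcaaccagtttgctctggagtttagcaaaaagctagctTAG
The catalogues do not give the letters that BV-2 carries there. Serpinb10-201 has 8 exons, and all 3 control libraries listed exon 1 and exon 8, exactly as annotated in replicates 1 and 3 (65 and 2604 bases) and with a last exon of 508 bases in replicate 2. The NMN libraries held the same number of events but other exons. NMN replicate 1 ran from exon 1 to exon 7, NMN replicate 2 from exon 2 to exon 4, and NMN replicate 3 from exon 2 to a last exon that lies 9652 bases beyond exon 8 as the control libraries list it. RefSeq ends the gene 11471 bases further on than GENCODE M21 does. Both end exons were listed in 3 of 3 control and 0 of 3 NMN libraries, a difference that the number of events does not show. It was noticed after the values were seen and was not tested, and 3 libraries against 3 cannot give a two-sided exact p under 0.10. Over all matched genes the share of listings with both end exons was 65.4, 66.1 and 66.7% in the control and 66.3, 65.4 and 65.3% in the NMN libraries, so the groups as a whole overlapped.

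Capn9 lies on chromosome 8 at 124576111-124618731, plus strand, and Capn9-201 has 20 exons. No library listed exon 1, and none of its 9 first exons or 9 last exons had the same outer and inner ends in more than 1 library, although 7 of the last exons began at the annotated start of exon 20. Control replicate 2 ran from exon 4 to exon 16, NMN replicate 2 from exon 7 to exon 16, NMN replicate 3 from exon 13 to exon 20 and LPS+NMN replicate 1 from exon 14 to exon 20. The other 5 listings, in control replicates 1 and 3, NMN replicate 1 and LPS+NMN replicates 2 and 3, paired the last exon of Capn9 on the plus strand with a first exon on the minus strand that matches no annotated exon. Such listings with first and last exons on opposite strands made up 4896 of 145517 over all genes (3.36%). None of the 9 listings of Capn9 thus spans the annotated gene, and 5 of them mix strands. The minus-strand first exon had the same inner end in control replicate 3, NMN replicate 1 and LPS+NMN replicates 2 and 3. Control replicate 1 had another. Whether these first exons belong to Capn9 was not tested.

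The first and last exons of the other members varied as well. Mmp3 had 7 forms of the first exon and 6 of the last in 9 libraries, with the most frequent form of each in 4 libraries. Serpina3f had 6 forms of each, and Serpinb10 5 of each in 6 libraries. Stfa3 had 3 forms of the first exon and 4 of the last. No event under any other gene name fell between the outermost listed positions of any of the 5 genes, in any library. A transcript whose listed events all lie outside those positions would not be seen by this count.

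Mmp3, Serpina3f, Stfa3 and Serpinb10 have neighbours of their own families, which were listed on other patterns. In the metalloprotease cluster around Mmp3, Mmp12, the macrophage elastase, was listed in all 12 libraries with 2 to 5 events, and Mmp10, stromelysin 2, in 9. Mmp10 had 0, 0 and 2 events in control, 2, 2 and 0 in LPS, and 2 in each NMN and LPS+NMN library, so that control and LPS overlapped. Mmp1a, which lies 8165 bases after Mmp3, was listed in 3 libraries and Mmp1b in 1. Next to Serpina3f, Serpina3g was listed in 11 libraries, with 0, 2 and 2 events in control and 2 or 3 in the treated libraries, and Serpina3c in none. Both end exons of Serpina3g were listed in 0 control, 2 LPS, 3 NMN and 2 LPS+NMN libraries. Stfa2, beside Stfa3, had no event in control, 2, 0 and 2 in LPS, 2, 2 and 2 in NMN and 2, 0 and 0 in LPS+NMN, and Stfa1 was listed in 11 libraries. Serpina3f, Serpina3g, Stfa1, Stfa2 and Stfa3 have close relatives in sequence, and no source used here says how reads shared between copies were placed, so each of these listings is uncertain to that extent.

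Serpinb2, the plasminogen activator inhibitor 2, overlaps Serpinb10 in the annotation by 6476 bases and was listed on another pattern. It had 2, 0 and 2 events in control, 2, 3 and 2 in LPS, 2, 2 and 2 in NMN, and 3, 2 and 3 in LPS+NMN. Both of its end exons were listed in 0 of 3 control, 2 of 3 LPS, 0 of 3 NMN and 3 of 3 LPS+NMN libraries. The libraries with the full Serpinb2 span were therefore all among the 6 in which Serpinb10 was missing. This relation was noticed after the values were seen and was not tested. Serpinb8, on the other side, was listed in all 12 libraries.

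Of 192 other genes in 12 lists of proteases and inhibitors, 118 were in some catalogue, 62 in all 12, and 74 in none. Of the 118, 21 were in fewer than 3 libraries and 11, among them Mmp13, Cstb, Cst3 and Capn2, did not vary over the 12 libraries, which left 86 to test. One of the 86 was called by limma in each comparison with control. This was Serpina11, a clade A serpin with little known function, with 0, 0 and 0 events in control and 2 in each of the 9 treated libraries, a difference of 1.58 ± 0.22 (SE) and adjusted p of 0.00618 for LPS, 0.00715 for NMN and 0.00676 for LPS+NMN in limma. The events of Serpina11 did not vary within any group, so this SE and these p-values rest on the spread that limma takes over from other genes. The Serpina11 calls ended when only the libraries of the 2 groups compared were fitted. Its listing pattern is that of Mmp3, Serpina3f and Stfa3, but no library listed its exon 1 and only 5 of its 9 listings reached the last exon. None was called in LPS+NMN against LPS or against NMN, where the smallest adjusted p was 0.884 and 0.675 in limma, and 1 and 7 genes had an unadjusted p under 0.05. In LPS against control 46 of the 86 had a higher mean and 20 a lower one, against 4598 and 5302 of all 11671 genes. The median difference was 0.09 for the 86 genes and 0 for all genes. An unadjusted p under 0.05 was reached by 14.0% of the 86 and by 7.47% of all genes with LPS, by 10.5% and 7% with NMN, and by 11.6% and 7.45% with LPS+NMN. The 2 sets are unlike: 62 of the 118 list genes were in all 12 catalogues, against 10858 of the 14275 genes. Genes missing from some libraries move in larger steps, and the filter let in genes absent from control, such as Stfa2, Mmp25 and Cstl1. The part of this in the counts and shares was not tested.

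**Figure D3:**
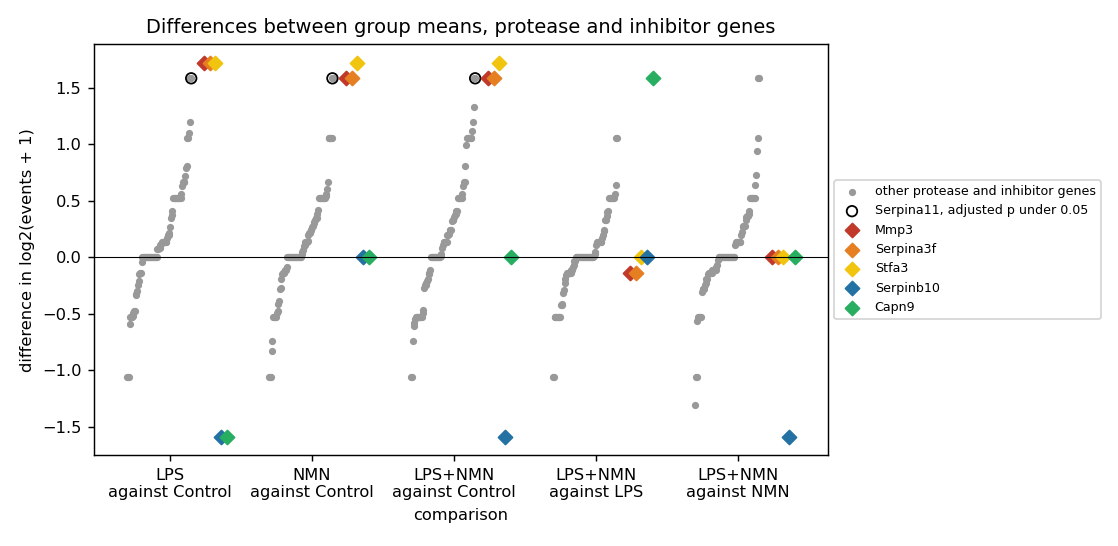
Difference between group means in log2(events + 1) (y axis) for each of the 5 comparisons (x axis); grey points are the 86 other protease and inhibitor genes in order of size, circles mark the called gene Serpina11, and diamonds are the 5 genes described. In LPS against control the 5 genes lie at 1.72 or -1.58, and a step of about this size follows from how they were chosen. Serpina11 and Cstl1 of the other 86 lie at 1.58. In LPS+NMN against LPS only Capn9 of the 5 lies far from 0.

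By list, none of the 13 metalloproteases tested was called with LPS. The mean was higher in 8 and lower in 3, with a median difference of 0.53. Mmp25, a membrane-anchored metalloprotease of leukocytes, was listed in no control and no NMN library, in 2 of 3 LPS libraries and in all 3 LPS+NMN libraries, and was not called. Mmp9, the gelatinase B of activated macrophages, had 3, 5 and 3 events in control, 2, 2 and 3 in LPS, 2, 3 and 2 in NMN and 2, 2 and 2 in LPS+NMN. Mmp13 had 2 events in all 12 libraries, Mmp14, a membrane metalloprotease that activates others, was missing from control replicate 2 alone, and the inhibitors Timp1 and Timp2 had 2 or 3 in every library. Mmp3 thus entered the catalogues beside metalloproteases and inhibitors that were listed with and without treatment.

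Of the 3 clade A serpins tested, Serpina11 was the one called. Serpina12 was listed in 5 libraries, all 3 of LPS+NMN, 1 of LPS and 1 of control. Serpina3n, the acute-phase relative of Serpina3f, was listed in control replicate 1 and NMN replicate 3 only. None of the 12 clade B serpins tested beside Serpinb10 was called with LPS. Their mean was higher in 5 and lower in 4, with a median difference of 0. Serpinb6a, an inhibitor of the cytosol, had 14 to 17 events in every library, and Serpinb9, the granzyme B inhibitor, 2 to 6. Plau, the urokinase that activates plasminogen, had 3 or 4.

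None of the 5 stefins tested beside Stfa3 was called with LPS, and 4 had a higher mean. Cstb, the stefin B of most cells, had 2 events in all 12 libraries, and Cst3, the secreted cystatin C, had 3 in all 12. Cstl1, a secreted cystatin-like gene, was listed in no control library, all 3 LPS, 1 NMN and 2 LPS+NMN libraries, and was not called. Of the enzymes that stefins inhibit, Ctsb had 2 to 6 events and Ctss 2 to 4. Of the 8 calpain genes tested beside Capn9 none was called with LPS, and 5 had a higher and 3 a lower mean. Capn1 had 3 to 7 events, Capn2 had 2 in all 12 libraries, their small subunit gene Capns1 had 2 to 5, and Cast, which encodes the calpain inhibitor calpastatin, 5 to 7.

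The genes most like each member over the 12 libraries were taken by Pearson's r of log2(events + 1), given as a description, since all points share the same libraries and the treated groups share one control. Mmp3 and Serpina3f had an r of 1 with each other. The next was H2-M2, a class Ib histocompatibility gene, at 0.993, followed by 10 genes tied at 0.988, of which Dnase1l3, Gpr18 and Gsta1 come first in the alphabet. Stfa3 was most like Speer4d at 0.989, then Hrc and Slc26a4 at 0.980. Apart from itself, 23 genes shared the listing pattern of Mmp3, of which 4 have predicted or clone names. Among the rest were Serpina3f, Stfa3 and Serpina11, the interferon-induced Ifit3b, Apol9b and Zbp1, and the cytokine genes Il12b and Il36a. The others were Dnase1l3, Gpr18, Gsta1, H2-M2, Hrc, Ifit1bl1, Ntng2, Slc26a4, Speer4d, Srms and Urah. No other gene had the pattern of Serpinb10, and the nearest was Scara5 at 0.849, followed by 7 genes tied at 0.845, B4galnt4, Cpne5, Far1 and Myh14 first. One gene, Cfap77, shared the pattern of Capn9, with an r of 0.988. Rsrp1 followed at 0.976, with 16, 16 and 17 events in control, 12, 12 and 11 in LPS, 16, 16 and 17 in NMN and 16, 17 and 17 in LPS+NMN. Miga1, Rnf13 and Repin1 came next at 0.840, 0.827 and 0.818.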

How the data were processed

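RNA-seq of BV-2 cells had given 12 deposited catalogues of transcript events, 3 libraries in each of 4 groups taken from the sample titles. Per the file headers, the authors list each event with its type, gene, position and strand, and no other value: depth is unknown, and no interval can be given. Tools in the submitters' processing notes are HOMER, MACS2 2.1.0 and BWA 0.7.12, with GRCm38 as the build. The positions of most genes in the catalogues do not lie on that build. No source used here names the program behind the catalogues. Of 772924 lines, 128404 partner lines without the event and 9998 repeats were dropped.

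Distinct events per gene were compared with limma 3.58.1 in R 4.3.3 (trend and robust moderation, log2(events + 1), 4 group means, Benjamini-Hochberg at 0.05). Of 14275 genes, 1500 with an event in fewer than 3 libraries and 1104 with the same number in all 12 were left out, and 11671 were tested. The script was tested on simulated data. Other steps used Python 3.11.15 and pandas 2.3.3. Exons were numbered by matching each gene to GENCODE M21 with 1 shift supported by at least 2 exon ends; promoters are from RefSeq.

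The members and lists were chosen with earlier results of these data known. Named beside the 5 genes are list members called or listed in all of 1 group and none of another, genomic neighbours of the same family, a set of well-known relatives whatever their values (1 is not reported here), and the most similar genes by Pearson's r. Alternatives tried were the value added before the log, the filter, the groups fitted, the moderation, exact forms, end exons only, listing alone, the replicate number as a block and leaving out each library.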

Additional observations from a re-analysis of the deposited data

How the results depend on the processing

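The numbers of called genes kept within 1.5 times of 35, 27 and 39 for LPS, NMN and LPS+NMN against control with 0.5 added before the log, no filter, no trend or robust moderation, exact forms only, and first and last exons only. With only the 2 groups compared they were 1, 1 and 3, with none of the 5 members and 0, 0 and 0 genes of the protease and inhibitor lists. With listed or not listed in place of event numbers they were 0, 0 and 0, and 0, 0 and 0 for the lists. The 10858 genes listed in all 12 libraries do not vary on that scale and were left out of this fit. It is therefore not a like-for-like comparison with the main fit, and the cause was not tested. For LPS+NMN against LPS, 3 genes were called with 0.5 added and 6 without trend and robust moderation, in both cases with Capn9 among them; for LPS+NMN against NMN, 6 without that moderation, with Serpinb10 among them. Serpinb10 was not called against control with first and last exons only, a setting that left its own numbers of events unchanged.

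Leaving out each library in turn gave 32 to 55 genes for LPS against control, 27 to 44 for NMN, 32 to 55 for LPS+NMN, 0 to 11 for LPS+NMN against LPS and 0 to 0 for LPS+NMN against NMN. The 55 with LPS came without control replicate 1, NMN gave 44 without control replicate 1 or 2 and 43 without replicate 3, and the 11 came without LPS replicate 1. The lists gave 1 to 2, 1 to 2 and 1 to 3 genes against control, the higher values without control replicate 2 or 3, and 0 otherwise. Serpinb10 was called in no such fit, with LPS or LPS+NMN against control. Stfa3 was lost without LPS replicate 2, NMN replicate 1 or LPS+NMN replicate 3, each in the comparison of its own group with control.

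With the replicate number as a block, 33, 26 and 32 genes were called against control, 1 of the lists each, and 0 and 0 in the comparisons with LPS and NMN; Serpinb10 was not called. No pairing of the samples by number was seen. Same-numbered libraries had correlations of deviations from -0.03 to 0.02 over 18 pairs and differently numbered ones from -0.02 to 0.02 over 36. Numbers of events may be too coarse to show a shared culture or batch.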
